A study of Mus musculus with 8 samples.

Results

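A group of 9 genes used as markers of the stem cells at the base of intestinal crypts was followed in mouse intestinal organoids with a mutated Apc, with and without TGF-beta. They are Lgr5, Ascl2, Olfm4, Smoc2, Rgmb, Tnfrsf19, Cdca7, Prom1 and Msi1, taken by name from the stem cell signature, and all 19 annotated probes of these 9 genes were examined. Of the 9, 8 could be tested, among 9062 genes tested on the arrays. A gene was tested when at least 1 of its probes was detected, at a detection p under 0.05, on at least 4 of the 8 arrays.

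The TGF-beta group was 4 organoid samples exposed to the growth factor (3 ng/ml) over 18 h, and the untreated group was 4 samples without it. Per the labels, organoids of both groups were intestinal, Apc-mutated, on a C57Bl background and from animals aged 3 to 4 months. Both groups had also received tamoxifen, after which growth factors were withdrawn, so every comparison here is made within tamoxifen-treated organoids that lacked them. The promoter that drives any recombinase, the part of Apc that was mutated and the efficiency of the mutation are not stated in the labels. Each sample was hybridised to 1 Illumina bead array, and the number of arrays limits the precision. Replicate numbers run from 1 to 4 in both groups, and the labels do not tie them to separate cultures or animals, so the p-values cover only the spread between these arrays, part of which lies between the replicate sets described below.

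Crypts are renewed by columnar stem cells at their base, which lie between Paneth cells and divide continuously. Wnt signalling through beta-catenin and TCF factors maintains these cells, R-spondins bound by Lgr5-family receptors amplify it, and Apc normally limits it by promoting the degradation of beta-catenin. TGF-beta signals through Smad proteins and is known as an inhibitor of epithelial growth in the intestine. In bulk RNA, fewer stem cells and less RNA of a gene per cell cannot be told apart, and this applies to every level given here.

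The replicates stood apart in 2 sets. Xist, the RNA of the inactive X chromosome, lay between 9.30 and 10.18 on the log2 scale for replicates 2 and 3 of either group, while replicates 1 and 4 read 4.45 to 4.69. Eif2s3y, a gene of the Y chromosome, had the opposite pattern: replicates 1 and 4 read 8.20 to 8.48 and the other set 4.42 to 4.72. Because each set holds 2 TGF-beta and 2 untreated samples, the differences below are also given within each set. From 14554 to 16108 probes were detected on the TGF-beta arrays and from 15281 to 16626 on the untreated arrays. Apc had log2 values of 5.25, 5.28, 5.22 and 5.31 on the TGF-beta arrays and 5.42, 5.67, 5.61 and 5.80 on the untreated arrays. Those values lie close to the lowest detected signal of 5.04 to 5.23, and since the place of the probe relative to the mutated part is not known, they check nothing about the mutation. The epithelial identity of the samples was seen in Krt8, Krt18, Krt19, Cdh1, Vil1 and Cdx2, which were detected on all 8 arrays. The single Epcam probe was detected on 4 TGF-beta arrays and on 0 untreated arrays, at log2 5.81 ± 0.25 and 4.89 ± 0.15 (SD, n = 4 each), so this epithelial marker was near background throughout.

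Promoters of the genes were available from RefSeq, on build GRCm38.p6, as 250 bases before to 50 bases after a transcription start. In all, 10 promoters of 6 of the 9 genes were matched by symbol, and Lgr5, Smoc2 and Msi1 were not matched. They were searched on both strands for the TCF/LEF word ATCAAAG with its variants AACAAAG as well as TTCAAAG and also TACAAAG, for the E2F words TTTCCCGC, TTTCGCGC, TTTGGCGC and TTTGCCGC, and for the Smad palindrome GTCTAGAC. These words do not overlap one another in the promoters printed. Of these, 3 are shown: the 2 that held a word, with the word in capitals, and that of Olfm4, the gene with the largest fall, which held none and stands in lower case throughout.

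Tnfrsf19 promoter 2, chr14:61037938-61038237, minus strand: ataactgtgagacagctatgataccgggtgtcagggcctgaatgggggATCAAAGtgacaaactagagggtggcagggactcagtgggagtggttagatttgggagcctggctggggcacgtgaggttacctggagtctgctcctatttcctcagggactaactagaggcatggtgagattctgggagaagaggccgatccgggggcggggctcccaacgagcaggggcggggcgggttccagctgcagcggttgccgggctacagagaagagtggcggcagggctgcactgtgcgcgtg

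Cdca7 promoter, chr2:72475969-72476268, plus strand: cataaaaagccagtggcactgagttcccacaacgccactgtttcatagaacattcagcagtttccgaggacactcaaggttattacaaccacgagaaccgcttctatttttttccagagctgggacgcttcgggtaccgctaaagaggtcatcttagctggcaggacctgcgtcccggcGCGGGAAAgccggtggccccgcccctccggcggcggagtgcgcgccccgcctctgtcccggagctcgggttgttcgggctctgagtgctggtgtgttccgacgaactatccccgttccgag

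Olfm4 promoter, chr14:80000052-80000351, plus strand: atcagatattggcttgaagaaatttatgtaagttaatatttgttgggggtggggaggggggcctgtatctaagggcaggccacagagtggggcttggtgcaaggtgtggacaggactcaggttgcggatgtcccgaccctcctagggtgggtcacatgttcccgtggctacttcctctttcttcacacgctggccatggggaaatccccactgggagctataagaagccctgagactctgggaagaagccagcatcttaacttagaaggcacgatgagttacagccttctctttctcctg

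The Tnfrsf19 promoter holds the TCF/LEF word ATCAAAG on its own strand, with its first base at -202 from the start. At least 1 of the 4 TCF/LEF words stands in 16.9% of the 32851 mouse promoters in the same table, and in 1 of the 10 promoters here. The Cdca7 promoter holds the E2F word TTTCCCGC on the opposite strand, so that GCGGGAAA is read on the strand printed, with its first base at -71. An E2F word stands in 2.26% of all promoters and again in 1 of the 10. The Smad palindrome stands in 0.213% of all promoters and in 0 of the 10. A match describes letters in this window, and nothing about a factor follows from a match or from its lack.

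Of the 9 genes, 6 fell with TGF-beta in the fit across all tested probes: Lgr5, Olfm4, Smoc2, Rgmb, Tnfrsf19 and Cdca7. None of the 9 rose. Ascl2 missed the threshold on its brightest probe and passed it on its second, Prom1 did not pass, and Msi1 was too dim to test. Among all 9062 genes tested, 895 fell, which is 9.88%, and 867 rose, which is 9.57%. Under median scaling in place of quantile normalization 941 genes fell and 495 rose, and without untreated replicate 1 there were 572 that fell and 673 that rose. The number of the 9 genes that fell was 7 and 6 under these settings. At the level of probes, 10 of the 12 tested probes of the 9 genes fell, against 8.86% of all 15573 tested probes. On 5 genes (Lgr5, Smoc2, Rgmb, Tnfrsf19 and Cdca7) every TGF-beta array was lower than every untreated array, which held for 12.9% of all genes tested. The median difference over the 8 tested genes was -1.47 (log2, TGF-beta minus untreated), against -0.05 over all tested genes. Smoc2, both tested Rgmb probes and the second Tnfrsf19 probe met the filter through their 4 untreated arrays, where they are brighter. Passing it already favoured a fall for these 4 of the 10 probes, so the counts and the median describe the genes and are not support.

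Samples that share a replicate number deviated together from their groups, and blocking on that number gave more calls. Whether they pair beyond the replicate sets was not tested. With the replicate block, 7 of the genes fell, Ascl2 being added, and Prom1 rose. Under the same replicate block 17.3% of all genes fell and 14.4% rose.

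**Figure D1:**
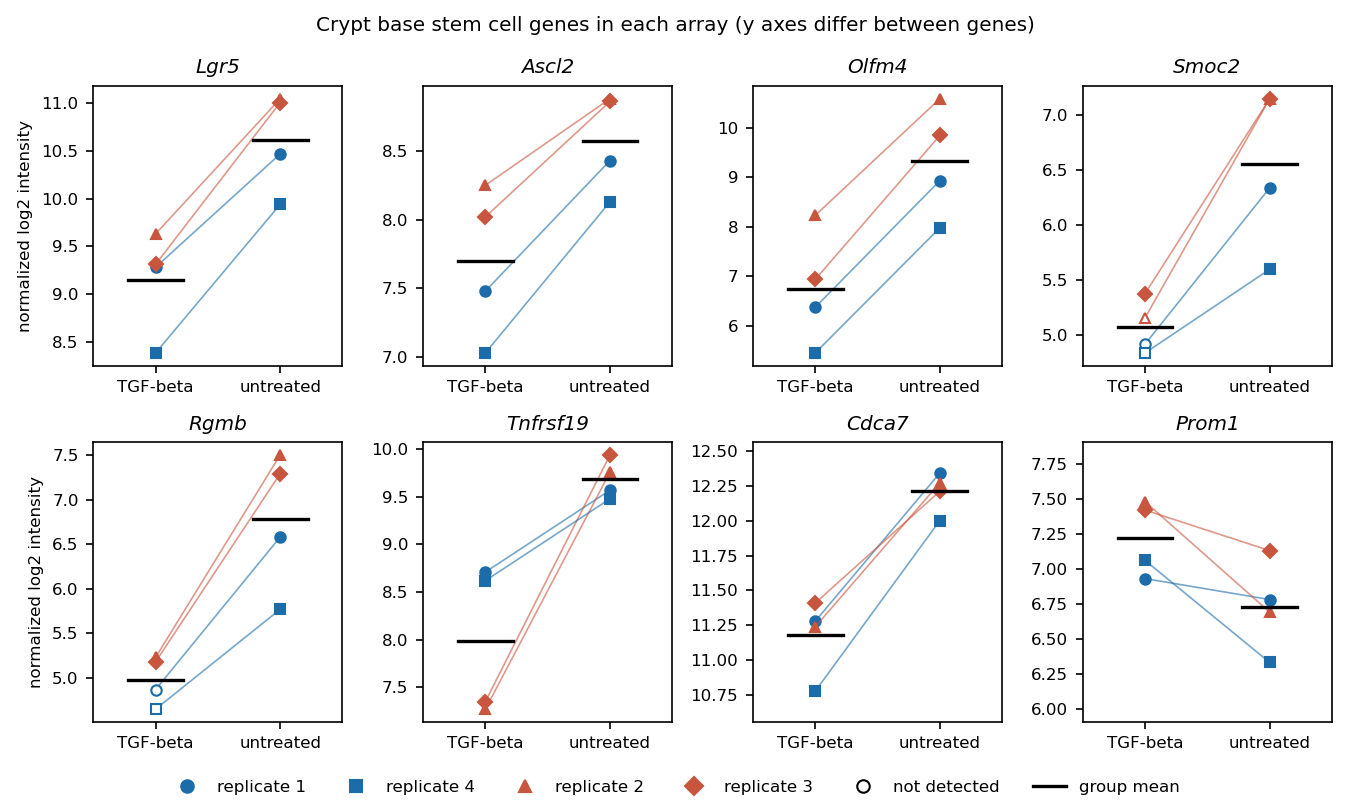
Normalized log2 intensity of the 8 tested genes on each TGF-beta array (left of each panel) and each untreated array (right), with lines joining samples of the same replicate number, black bars for group means and open points for signals that were not detected. For Lgr5, Smoc2, Rgmb, Tnfrsf19 and Cdca7 all TGF-beta points lie below all untreated points, and for Prom1 the TGF-beta mean is the higher, at 7.22 against 6.73.

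Lgr5 is a receptor for R-spondins and the gene that defines the cycling stem cells of the crypt base. On its brightest probe (ILMN_2650008) it had log2 values of 9.28, 9.63, 9.31 and 8.38 with TGF-beta, against 10.47, 11.05, 11.01 and 9.94 in untreated samples. Every TGF-beta array lay below every untreated array, and replicate 4 was the lowest of each group. The mean was 9.15 ± 0.54 with TGF-beta and 10.62 ± 0.53 without (SD, n = 4 each), a difference of -1.47 (SE 0.31, 95% interval -2.15 to -0.78) or 2.76-fold lower, with limma adjusted p = 0.0092. The 4 same-numbered pairs differed by -1.19, -1.42, -1.70 and -1.56, so the pairs spread less than the samples did, and the adjusted p with the replicate block was 8.8e-05. In signal as deposited, the TGF-beta arrays read 728, 645, 827 and 452 units and the untreated arrays 1650, 2343, 2242 and 1080 units. A second Lgr5 probe (ILMN_1241448), close to background and detected on 3 TGF-beta and 4 untreated arrays, had 4.95, 5.36, 5.24 and 5.32 with TGF-beta against 6.18, 6.73, 6.57 and 5.94 without. It fell as well, by 1.14 (SE 0.19), with limma adjusted p = 0.0030.

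Ascl2 is a basic helix-loop-helix transcription factor that is induced by Wnt signalling and maintains the stem cells. Its brightest probe (ILMN_2750349) had log2 values of 7.48, 8.25, 8.02 and 7.03 with TGF-beta, against 8.43, 8.88, 8.86 and 8.13 untreated. The groups overlapped at their edges, since replicate 2 with TGF-beta lay above untreated replicate 4. The mean was 7.70 ± 0.55 with TGF-beta and 8.57 ± 0.36 untreated (SD, n = 4 each), a difference of -0.88 (SE 0.28, interval -1.49 to -0.27) with limma adjusted p = 0.052, which misses the threshold of 0.05. With the replicate block the limma adjusted p was 0.0011, and every same-numbered pair was lower, with differences of -0.94, -0.63, -0.83 and -1.10. The second probe (ILMN_2919900) had 7.05, 7.49, 7.80 and 6.34 with TGF-beta against 7.96, 8.53, 8.57 and 7.95 untreated, with no overlap. It fell by 1.08 (SE 0.30) with limma adjusted p = 0.030. The third Ascl2 probe (ILMN_2515236) was detected on 0 arrays. Leaving out TGF-beta replicate 2 brought the brightest probe's limma adjusted p to 0.027, and leaving out untreated replicate 4 brought it to 0.041, while leaving out any other single sample gave 0.062 to 0.128.

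Olfm4, a secreted glycoprotein that is abundant in crypt base columnar cells, had the largest fall of the 9 genes. Its tested probe (ILMN_3161834) had log2 values of 6.38, 8.23, 6.94 and 5.46 with TGF-beta, against 8.93, 10.58, 9.84 and 7.98 untreated. Replicate 2 was the highest and replicate 4 the lowest of each group, and the TGF-beta replicate 2 lay above the untreated replicate 4. The mean was 6.75 ± 1.16 with TGF-beta and 9.33 ± 1.12 untreated (SD, n = 4 each), a difference of -2.58 (SE 0.63, interval -3.96 to -1.19) or 5.97-fold lower, with limma adjusted p = 0.018. Same-numbered pairs differed by -2.55, -2.35, -2.90 and -2.52, a narrow range beside a spread of more than 2.5 log2 units within each group, and the adjusted p was 5.7e-06 with the replicate block. In deposited units the signals were 189, 319, 253 and 159 with TGF-beta and 637, 1738, 1066 and 360 untreated. The call was lost without a filter on dim probes (limma adjusted p = 0.067) and with trended and robust variances (0.064). The difference was -1.73, with limma adjusted p = 0.027, in the authors' deposited log2 values, which show no background subtraction. The other Olfm4 probe (ILMN_1251559) was detected on 0 arrays.

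Smoc2, a secreted calcium-binding protein of the extracellular matrix, was close to background with TGF-beta. Its single probe (ILMN_2554610) was detected on 1 TGF-beta array and on all 4 untreated arrays. It had log2 values of 4.92, 5.16, 5.38 and 4.84 with TGF-beta, against 6.34, 7.15, 7.15 and 5.60 untreated. The groups did not overlap, and untreated replicate 4 lay nearest to the TGF-beta arrays. The mean was 5.08 ± 0.24 with TGF-beta and 6.56 ± 0.74 untreated (SD, n = 4 each), a difference of -1.48 (SE 0.32, interval -2.19 to -0.77) or 2.79-fold lower, with limma adjusted p = 0.010. Since most TGF-beta arrays did not detect it, the size of that fold depends on the background. The log2 difference was -0.55 in the authors' deposited log2 values, where the limma adjusted p was 0.026. The probe met the filter through its 4 untreated arrays, where it is brighter, so its p is no separate support.

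Rgmb, a membrane-anchored co-receptor for bone morphogenetic proteins, behaved like Smoc2 across the arrays. Its brightest probe (ILMN_2941058) was detected on 2 TGF-beta and 4 untreated arrays, with log2 values of 4.87, 5.23, 5.18 and 4.65 with TGF-beta, against 6.58, 7.50, 7.29 and 5.77 untreated. No TGF-beta array reached the lowest untreated array. The mean was 4.98 ± 0.27 with TGF-beta and 6.78 ± 0.78 untreated (SD, n = 4 each), a difference of -1.80 (SE 0.34, interval -2.55 to -1.06) or 3.49-fold lower, with limma adjusted p = 0.0049. In the authors' deposited log2 values it was -0.69, with limma adjusted p = 0.017. A second Rgmb probe (ILMN_2941052), not detected on any TGF-beta array, averaged 4.64 ± 0.03 with TGF-beta and 5.65 ± 0.30 untreated (SD, n = 4 each). It was at least 1.44-fold lower with TGF-beta, a bound that sets each TGF-beta array to its lowest detected signal where the probe lay under that, and its limma adjusted p was 0.0023. Both tested Rgmb probes met the filter through their 4 untreated arrays, this one through them alone, so neither p is separate support. The third Rgmb probe (ILMN_1235522) was detected on 0 arrays.

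Tnfrsf19, also called Troy, is a receptor of the tumour necrosis factor receptor family and a Wnt target marking crypt base stem cells. Its brightest probe (ILMN_2793522) had log2 values of 8.71, 7.27, 7.35 and 8.62 with TGF-beta, against 9.57, 9.76, 9.94 and 9.48 untreated. The groups did not overlap, and on the TGF-beta arrays replicates 2 and 3 lay more than 1 log2 unit below replicates 1 and 4, which was not so on the untreated arrays. The mean was 7.99 ± 0.78 with TGF-beta and 9.69 ± 0.20 untreated (SD, n = 4 each), a difference of -1.70 (SE 0.33, interval -2.43 to -0.97) or 3.24-fold lower, with limma adjusted p = 0.0059. The difference was -2.53 within replicates 2 and 3 and -0.86 within replicates 1 and 4. The test of that difference between sets gave -1.67 with limma adjusted p = 0.056, so the sets were not shown to differ. The second Tnfrsf19 probe (ILMN_2450817) was not detected on any TGF-beta array, with 4.66, 4.58, 4.81 and 4.93 there against 5.50, 5.18, 5.76 and 5.60 untreated. It was at least 1.31-fold lower with TGF-beta. Its limma adjusted p was 0.0088, but the probe passed the filter through its untreated arrays alone, so that p is no separate support.

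Cdca7 is a zinc-finger protein that acts with the chromatin remodeller Hells and is known as a target of Myc and E2F, so it is tied to cell division as well as to stem cells. It was far above background on all 8 arrays. Its single probe (ILMN_1221568) had log2 values of 11.28, 11.24, 11.41 and 10.78 with TGF-beta, against 12.34, 12.27, 12.21 and 12.00 untreated. No TGF-beta array came within 0.5 log2 units of the lowest untreated array. The mean was 11.18 ± 0.28 with TGF-beta and 12.21 ± 0.15 untreated (SD, n = 4 each), a difference of -1.03 (SE 0.17, interval -1.40 to -0.66) or 2.04-fold lower, with limma adjusted p = 0.0024.

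Prom1, a membrane glycoprotein of cell protrusions also known as CD133, was the only tested gene of the 9 whose mean was higher with TGF-beta. Its brightest probe (ILMN_1249786) had log2 values of 6.93, 7.48, 7.42 and 7.06 with TGF-beta, against 6.78, 6.69, 7.13 and 6.33 untreated. The groups overlapped, with TGF-beta replicates 1 and 4 below untreated replicate 3. The mean was 7.22 ± 0.27 with TGF-beta and 6.73 ± 0.33 untreated (SD, n = 4 each), a difference of 0.49 (SE 0.20, interval 0.05 to 0.94) with limma adjusted p = 0.121. All 4 same-numbered pairs were positive, at 0.16, 0.79, 0.29 and 0.73, and the limma adjusted p was 0.035 with the replicate block. Of the other Prom1 probes, ILMN_1238150 was detected on 2 TGF-beta arrays and 1 untreated array, and ILMN_2505476 on 0 arrays.

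Msi1, an RNA-binding protein of neural and intestinal progenitors, gave no measurable level. One of its probes (ILMN_1231287) was detected on 0 arrays and the other (ILMN_1251865) on 1 array, untreated replicate 3. Neither was tested, and no direction can be given for Msi1 at this signal.

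**Figure D2:**
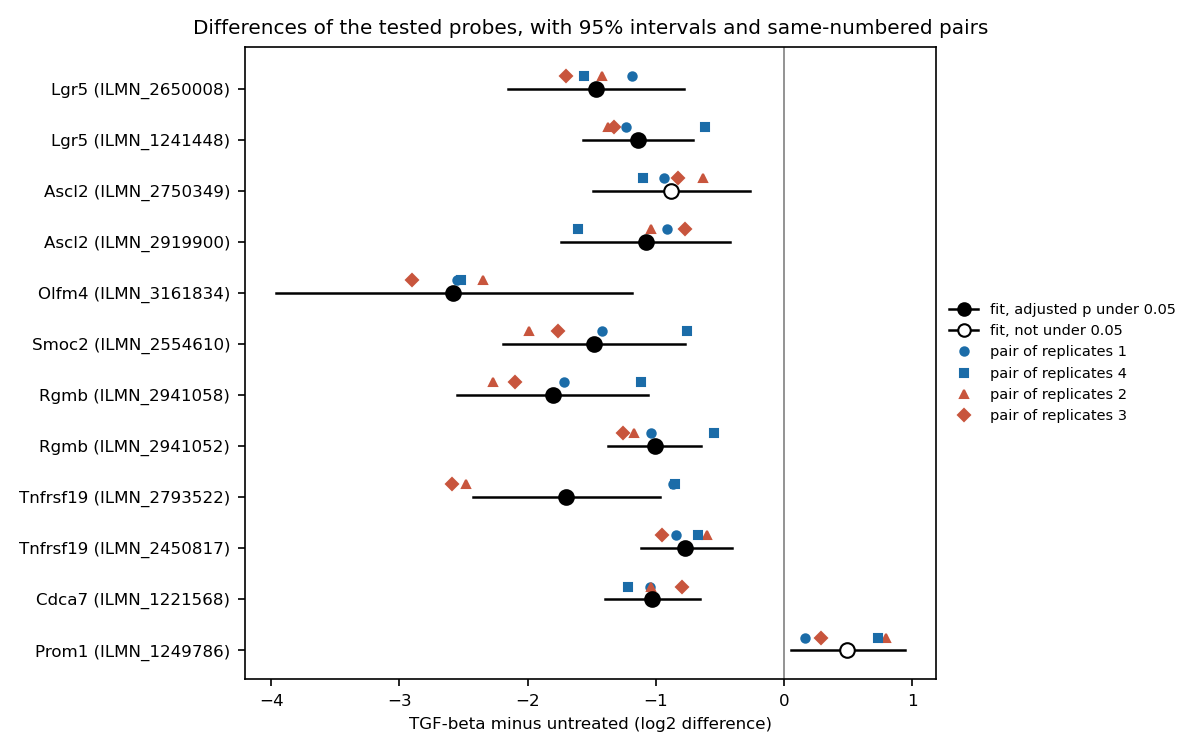
Log2 differences, TGF-beta minus untreated, of the 12 tested probes, with 95% intervals (black) and the 4 same-numbered pairs (coloured symbols); filled circles passed the threshold and open circles did not. The 10 filled circles lie below 0, from -2.58 for Olfm4 to -0.77 for the second Tnfrsf19 probe, and the pairs of Tnfrsf19 (ILMN_2793522) split at -0.87 and -0.85 against -2.48 and -2.59.

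The genes differed among themselves in how they followed the replicate sets. With TGF-beta, Olfm4 averaged 7.59 over replicates 2 and 3 but 5.92 over replicates 1 and 4, and untreated it averaged 10.21 and 8.45 over the same sets. Lgr5 averaged 9.47 and 8.83 in these sets with TGF-beta, and 11.03 and 10.20 untreated. Rgmb showed the same order, at 5.21 and 4.76 with TGF-beta and 7.39 and 6.18 untreated. Thus these genes were higher in replicates 2 and 3 whichever the group. The brightest Tnfrsf19 probe with TGF-beta was instead lower there, averaging 7.31 over replicates 2 and 3 but 8.66 over the other set. The second Tnfrsf19 probe averaged 4.70 and 4.80 in these sets with TGF-beta. It was not detected on those arrays, so it cannot show whether the split holds. Cdca7 differed little between sets, with 11.32 and 11.03 with TGF-beta and 12.24 and 12.17 untreated. Within each set, the differences of Lgr5 were -1.56 for replicates 2 and 3 but -1.37 for replicates 1 and 4, and those of Olfm4 were -2.62 and -2.53. For Rgmb they were -2.19 and -1.42, for Smoc2 -1.88 and -1.09, and for Ascl2 -0.73 and -1.02.

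Over the 8 arrays, which share the group split and the replicate sets, the genes whose values followed a member most closely were ranked by Pearson's r, as a description. Rgmb and Smoc2 were each other's nearest gene (r = 0.994). For Lgr5 the nearest genes were Prdx4 (r = 0.987), Tox (0.985) and Aqp4 (0.984), and Aqp4, a water channel, is itself listed among crypt base genes. Olfm4 was followed by Mlst8, Tox and Zbtb39 (r = 0.982 each). After Rgmb, Smoc2 was nearest to Cited4 (r = 0.985) and Ugt2b35 (0.984), and after Smoc2, Rgmb was nearest to Guk1 and Ang (0.989 each). Tnfrsf19 was nearest to Tagap (r = 0.992), Fgfbp1 (0.989) and Ciart (0.984). Cdca7 was nearest to Deptor (r = 0.991), the intestinal homeobox gene Cdx2 (0.987) and the DNA repair gene Brca2 (0.986). After each gene's group means were subtracted, Lgr5 had r = 0.93 with Ascl2, 0.94 with Olfm4 and 0.68 with Prom1, but -0.31 with Tnfrsf19. That step leaves the difference between the replicate sets in the values, so these r include it.

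Of 55 other crypt base genes on a list of the stem cell signature and Wnt targets, 38 were tested. Of these, 13 fell and 6 rose, or 18 and 8 with the replicate block. The 13 and 6 are 34.2% and 15.8% of the genes tested, against 9.88% and 9.57% of all genes. With the replicate block 17.3% of all genes fell and 14.4% rose. The median difference of the 38 was -0.38, against -0.05 over all genes. Rgcc, a regulator of the cell cycle, fell the most of these, at 7.15 ± 0.08 with TGF-beta and 10.40 ± 0.58 untreated (SD, n = 4 each), a difference of -3.26 (SE 0.25) or 9.57-fold lower with limma adjusted p = 2.8e-05. Lrig1, an inhibitor of growth factor receptors that marks stem cells, fell by 1.37 (SE 0.15) with limma adjusted p = 2.5e-04. Ptpro, a receptor phosphatase, fell by 1.17 (SE 0.14) with limma adjusted p = 4.5e-04. Scn2b, a sodium channel subunit detected on 0 TGF-beta arrays and 4 untreated arrays, was at least 2.35-fold lower, with limma adjusted p = 4.3e-04, having passed the filter through the untreated arrays alone. Another pair from the list, chosen after their values were seen, were the following: the Wnt target Axin2 fell by 0.72 (SE 0.13) with limma adjusted p = 0.0034, and Hopx, of slowly cycling cells, fell by 1.15 (SE 0.17) with limma adjusted p = 0.0012. The 6 that rose were Cd44, Tgif1, Zbtb38, Phlda1, Sox9 and Igfbp4, led by Cd44, a hyaluronan receptor and Wnt target, at 1.19 (SE 0.23) with limma adjusted p = 0.0059. Tgif1, a repressor of Smad-dependent transcription, rose by 0.98 (SE 0.16) with limma adjusted p = 0.0024. The list thus held genes that moved in either direction, but the share that rose was nearer to that of all genes than the share that fell. The 6 rises were 2 under median scaling and 3 or 4 with any 1 sample left out.

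Close relatives of the 9 genes were mostly detected on too few arrays to test. Of 25 relatives, 21 were named by a probe and 6 were tested. Lgr4 and Lgr6, the other R-spondin receptors, were detected on 0 arrays, as were Ascl3, Smoc1, Hjv, Edar and Olfm3. A probe without signal does not show that its gene was silent, since the Epcam probe was also detected on 0 untreated arrays. Prom2, the paralogue of Prom1, fell by 0.99 (SE 0.25) with limma adjusted p = 0.022, and was detected on 2 TGF-beta and 4 untreated arrays. It met the filter through its untreated arrays, where it is brighter, so that p is not support. The 1 relative that fell is 16.7% of those tested, against 9.88% of all genes. That count became 0 without TGF-beta replicate 2 or 3 and without untreated replicate 1 or 4. It was also 0 with no filter, with detection p under 0.01 on all 8 arrays, and at an adjusted p under 0.01. With the replicate block, 2 relatives fell and 1 rose.

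Of 37 genes that act with the 9, including R-spondins, Wnt receptors, bone morphogenetic protein receptors and Notch genes, 22 were tested. Of these, 3 fell and 3 rose, or 4 and 6 with the replicate block, and the median difference was 0.19. Each count is 13.6% of the genes tested, near the 9.88% and 9.57% of all genes that fell and rose. Under median scaling 3 fell and 1 rose, and at an adjusted p under 0.01 there were 1 that fell and 3 that rose. Dnmt1, the maintenance DNA methyltransferase, fell by 1.29 (SE 0.21) with limma adjusted p = 0.0028. Among the receptors of Rgmb and of its ligands, Acvr1 rose by 1.33 (SE 0.16) with limma adjusted p = 3.7e-04, and Bmpr2 rose by 0.82 (SE 0.15) with limma adjusted p = 0.0046. Bmpr1a differed by -0.02 (SE 0.15, limma adjusted p = 0.937) and the Rgmb receptor Neo1 by -0.22 (SE 0.16, limma adjusted p = 0.381), and neither passed. Ctnnb1, which encodes beta-catenin, rose by 0.76 (SE 0.14) with limma adjusted p = 0.0046. Rspo1 and Rspo2, Znrf3 and the Cdca7 partner Hells were detected on 0 arrays, which does not show that they were silent.

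**Figure D3:**
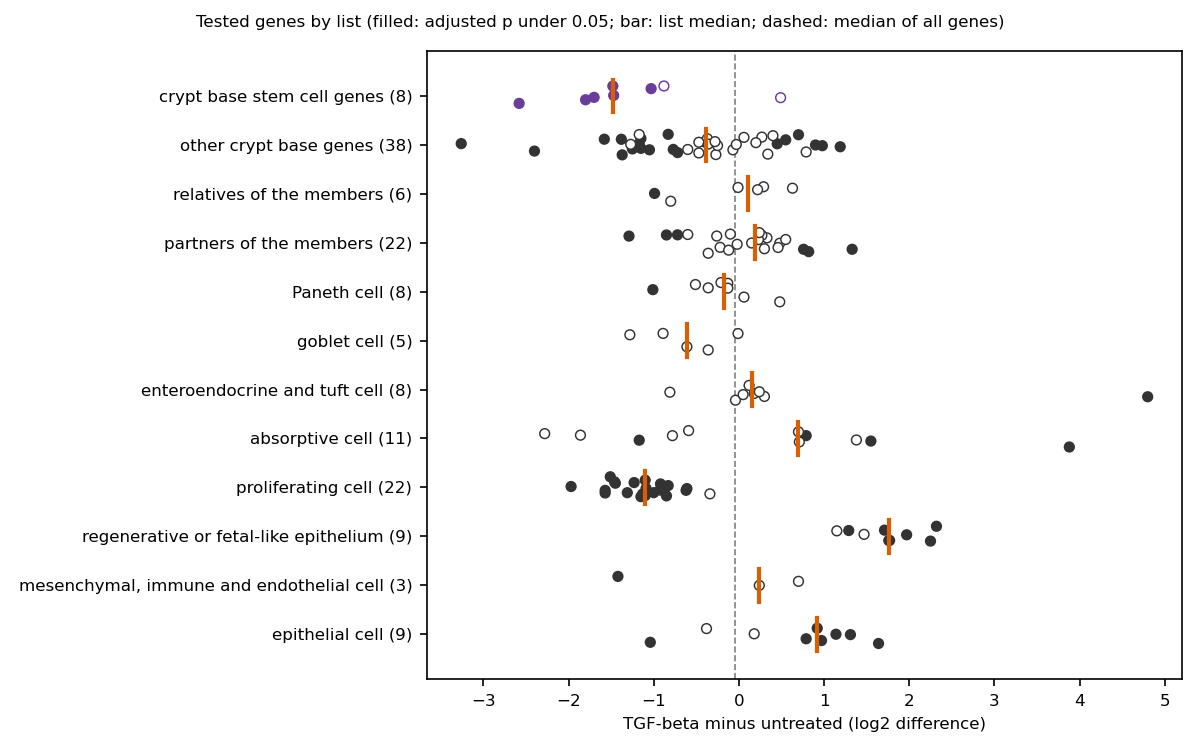
Log2 differences, TGF-beta minus untreated, of every tested gene in each list, with the number tested in brackets, filled points for genes past the threshold, an orange bar for the median of the list and a dashed line for the median of all genes at -0.05. The crypt base stem cell genes have a median of -1.47, the proliferating cell genes -1.10 and the regenerative or fetal-like genes 1.76.

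Markers of other cells moved beside the stem cell genes, and their part in the differences above was not tested. Of 22 tested genes of proliferating cells, 21 fell, or 95.5% against 9.88% of all genes, and 0 rose. Their median difference was -1.10. The summed level (of unlogged normalized values) was 7191 to 10804 on the TGF-beta arrays and 17285 to 21706 on the untreated arrays. Kif11, a mitotic motor, fell by 1.97 (SE 0.21) with limma adjusted p = 1.9e-04. Mcm5, of the replicative helicase, fell by 1.51, and Cdt1, which loads that helicase, fell by 1.57. E2f1, the transcription factor of S-phase genes, fell by 1.13. Among markers of the Paneth cells that adjoin the stem cells, 1 of 8 tested fell (Pla2g2a, by 1.01, limma adjusted p = 0.0093) and 0 rose. With the replicate block 2 fell and 1 rose. The 1 of 8 is 12.5%, near the 9.88% of all genes that fell. The summed level of these markers was 32741 to 56418 with TGF-beta and 38822 to 56784 untreated, so the groups overlapped. That sum mostly follows the 2 brightest markers, Defa20 and Lyz1, and says little about the others.

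Of 9 tested genes of regenerative or fetal-like epithelium, 7 rose and 0 fell, or 9 and 0 with the replicate block, with a median of 1.76 and a summed level of 58649 to 85492 with TGF-beta and 15359 to 37277 untreated. Cldn4, a tight junction protein, rose by 2.25 (SE 0.17) with limma adjusted p = 2.7e-05, and Ccn1, a Yap target, rose by 1.77 (SE 0.20) with limma adjusted p = 2.8e-04. Krt7, a keratin, rose by 1.76 and the interleukin antagonist Il1rn by 1.97. Among 11 tested absorptive cell genes 3 rose and 1 fell, or 6 and 3 with the replicate block, and Krt20, a keratin of mature surface cells, rose by 3.88 (SE 0.69) with limma adjusted p = 0.0039. Vil1, of the brush border, rose by 0.79 and the lipoprotein gene Apob by 1.55, whereas the protease gene Mep1b fell by 1.17. Sis and Slc5a1, of the same list, differed by -2.28 and -1.86 but did not pass (limma adjusted p = 0.071 and 0.101). Both fell with the replicate block (limma adjusted p = 8.2e-06 and 4.9e-05), so the absorptive genes did not move in 1 direction. Of 5 tested goblet cell genes 0 passed, against 3 that fell with the replicate block. Of 8 tested enteroendocrine and tuft cell genes 1 rose, the gut hormone gene Pyy, and 0 fell, or 1 and 1 with the replicate block. Pyy was detected on 4 TGF-beta arrays and on 1 untreated array, at 9.71 ± 0.21 with TGF-beta and 4.91 ± 0.29 untreated (SD, n = 4 each), and its limma adjusted p was 5.6e-07. The untreated mean lies under the lowest detected signal, so the size of the rise is uncertain. Of 9 tested epithelial genes, 6 rose, among them Krt19 by 1.64, Krt8 by 1.31 and Cdh1 by 0.97, and 1 fell (Cdx2, by 1.04). Among all genes, 9.57% rose and 9.88% fell. The 6 include Epcam, which passed the filter through its TGF-beta arrays alone, and Vil1, already counted among the absorptive genes. Of 16 named mesenchymal, immune and endothelial genes, 3 were tested and 1 fell, Vim, by 1.42 (limma adjusted p = 0.021). That list had a summed level of 312 to 523 with TGF-beta and 581 to 1564 untreated. Vim was by far the brightest of the 3, at log2 8.26 with TGF-beta and 9.68 untreated, so the sum mostly follows Vim. The median difference of the list was 0.24, with Acta2 at 0.70 and Cd3e at 0.24. Of the other 2 tested genes, the T cell gene Cd3e was detected on all 8 arrays and Acta2, of smooth muscle and myofibroblasts, on 4 TGF-beta and 3 untreated arrays, and neither passed. Among those not tested, Des was detected on 3 arrays, Ptprc on 2, and Dcn, Pecam1, Cdh5 and Kdr on 1 each. Col1a1, Col1a2, Col3a1, Pdgfra, Pdgfrb, Lum and Itgam were detected on 0 arrays, which does not show that they were silent.

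**Figure D4:**
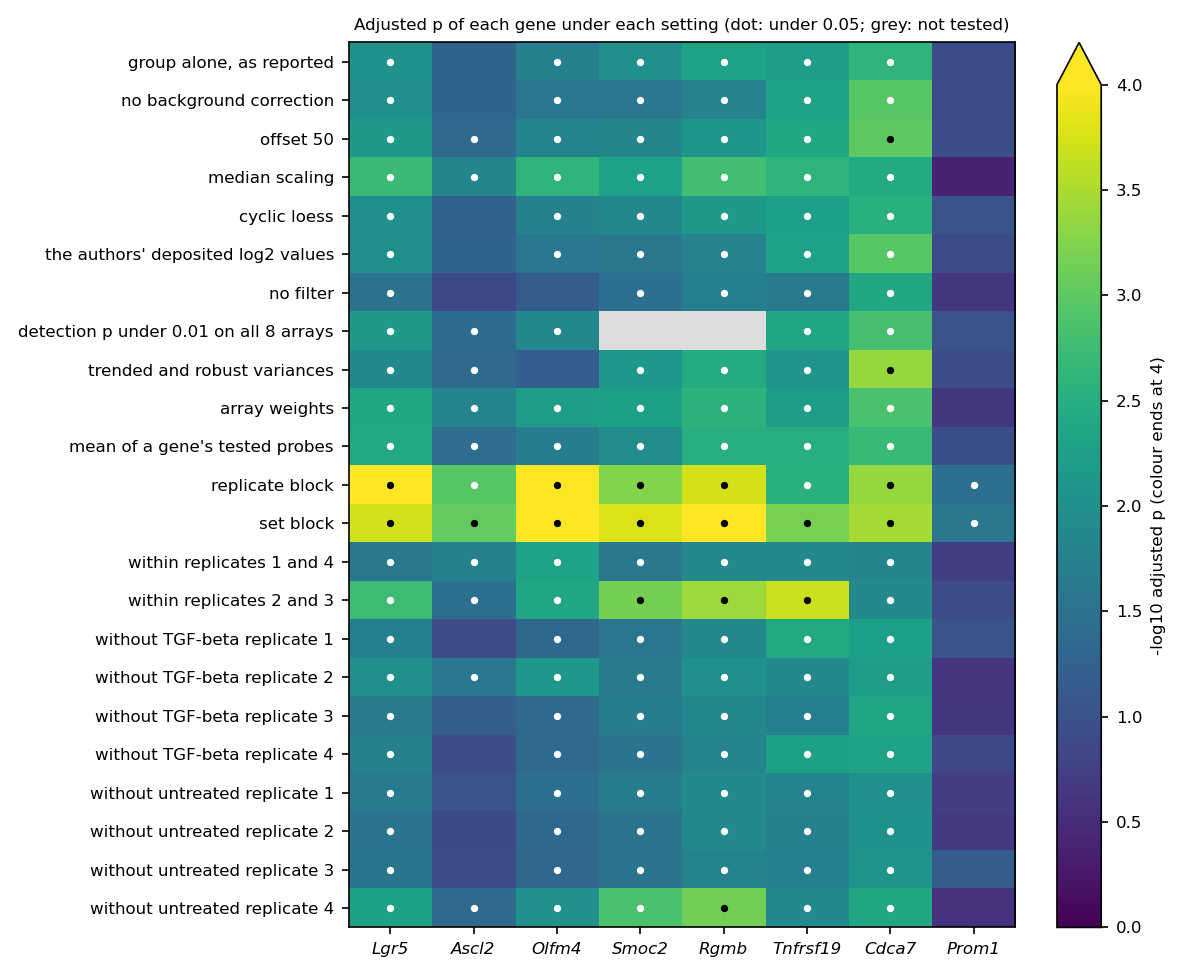
Minus log10 of the limma adjusted p of each tested gene (columns) under each way of processing or choice of samples (rows), with a dot where it is under 0.05 and grey where a gene was not tested. Lgr5, Smoc2, Rgmb, Tnfrsf19 and Cdca7 have a dot under every setting in which they were tested, Olfm4 lacks one under 2, and Prom1 has one under the replicate block and the set block.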

How the data were processed

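Total RNA of 8 organoid samples was DNase-treated and labelled with biotin, per the labels' protocols, and hybridised to Illumina mouse bead arrays. Per the file headers, the deposited signal table gives an intensity that was not normalized, with its detection p-value, for 45281 probes per array. The authors' deposited log2 table has no stated method; from its values it is quantile normalized with a median of 7.1 in every column, and it served as an alternative. Scanner software: not given in the sources used here. Of the columns of values, 0 were left unused.

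Intensities were background-corrected with normexp from the detection p-values (offset 16), quantile normalized and put on the log2 scale in limma 3.58.1 (R 4.3.3). Probes detected (p under 0.05) on at least 4 of 8 arrays, 15573 in all, were tested with lmFit and eBayes, with group as the sole term. Tests were two-sided, adjusted by Benjamini-Hochberg over all these probes, at a threshold of 0.05. The platform annotation names 34885 probes with a single symbol, 18 with several, and does not list 10378, which stay unnamed. The brightest tested probe, by its mean, stands for a gene, and the other probes of the 9 genes are given too. SE is that of the fit and SD is over 4 samples. The fits were tested on simulated data.

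The members and lists were chosen with earlier results of these data known. Genes named are the 9 and, from each list, up to 4 called genes, those of smallest adjusted p. The 3 genes most correlated with each gene that fell are also named. Outside that rule lie Axin2, Hopx, Apc, Neo1, Bmpr1a, Cd3e, Acta2, Sis, Slc5a1, Defa20, Lyz1 and the epithelial examples. So do the genes that rose among the crypt base genes and those detected on too few arrays to test. Same-numbered samples deviated together, with correlations of 0.534, 0.512, 0.514 and 0.554 for replicates 1 to 4. Samples of unlike number within a replicate set were not compared, so pairing by number beyond the sets was not shown. The pairing used for the block was taken from these values, and the labels tie the number to nothing. A replicate block was an alternative, as were other background, scaling, filter, variance and probe choices, the replicate sets and leaving out each sample. Promoters came from RefSeq (GRCm38.p6), searched in Python 3.11.15; gene coordinates are not printed because the array annotation used here states no build.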

Additional observations from a re-analysis of the deposited data

How the results depend on the processing

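At a threshold of 0.05, Lgr5, Smoc2, Rgmb, Tnfrsf19 and Cdca7 kept their direction and call. This held under each of the 21 or 22 alternatives that gave the gene a p, and none of the 8 tested genes changed sign. At a threshold of 0.01, Smoc2 (limma adjusted p = 0.010) was not called. The differences ranged from -1.69 to -1.21 (Lgr5), -1.88 to -0.55 (Smoc2), -2.19 to -0.69 (Rgmb), -2.53 to -0.86 (Tnfrsf19) and -1.15 to -0.90 (Cdca7). Olfm4 ranged from -3.07 to -1.73, Ascl2 from -1.09 to -0.60, with limma adjusted p from 9.1e-04 to 0.137, and Prom1 from 0.26 to 0.63, with 0.026 to 0.405. Ascl2 passed in 12 of 22 alternatives. Of the 9 genes, 4 to 7 fell over the alternatives, the lowest count being that at an adjusted p under 0.01. With the replicate block 1566 genes fell and 1302 rose, and with a block for the replicate sets 1580 and 1308; 1 of the 9, Prom1, rose under either block. At an adjusted p under 0.01, 361 genes fell and 475 rose. Median scaling left 495 that rose, and moved the median of all genes to -0.18, against -0.05 as reported. Leaving out each replicate gave 572 to 805 genes that fell, the lowest without untreated replicate 1, and 663 to 756 that rose, with 6 to 7 of the 9 lower and 0 higher. Causes were not tested. Smoc2 and Rgmb lie near background, so their folds are the least certain, and Msi1 was detected on 1 array only.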
